A study of Mus musculus with 4 samples.

Results

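Of the 410 genes that the authors listed as adjoining a MUNC peak, 193 lay more than 100000 bases from the nearest peak. They are called distant listed genes here. They were chosen by that distance, measured from the gene body to the peak edge, so the distances describe them and carry no test. Of the listed symbols, 408 were matched to a gene, which makes the distant genes 47.3% of those matched. A set of 7 genes was left aside, of which 4 also lay beyond the limit. The other listed genes were 101 with a peak inside the gene and 107 within 100000 bases without one.

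The peaks come from ChIRP-seq, a method that captures an RNA with biotinylated antisense probes and sequences the DNA crosslinked to it. All 4 libraries were made from wild-type C2C12 cells, an immortalised mouse myoblast line that the labels describe as PAX7 NEG. The MUNC group had 2 libraries and the lacZ group, whose probes target a bacterial sequence, also had 2. Per the protocols, cells were kept in medium with 20% FBS and were moved to 2% HS for differentiation, with a harvest after 3 days. The tissue label of every library is myotubes, the source label says myoblasts, and no value in the lists could check either against marker genes. The lists give 256 peaks and the gene symbols, with no score and no value for a single library. No comparison of MUNC with lacZ and no replicate error could therefore be given, and the intervals on shares are 95% Wilson intervals that cover counting error only.

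MUNC is a long noncoding RNA from the region upstream of Myod1, the gene of a master regulator of muscle differentiation, and it is known for raising the expression of myogenic genes. RNAs of this kind can act on chromatin away from the place where they are made, and enhancers can reach promoters across long stretches without genes. A list of adjoining genes records the order of genes along the chromosome. It holds no measurement of expression or of contact between a peak and a promoter.

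Distances of the 193 genes ran from 100351 to 968952 bases, with a median of 306597 bases and quartiles of 172514 and 541191 bases. Between 100000 and 200000 bases lay 63 of them, between 200000 and 500000 bases 73, and between 500000 and 1000000 bases 57. The limit cuts through a continuous range. Just outside it were Rack1, a ribosomal scaffold protein, at 100351 bases, the tetraspanin gene Tspan17 at 103821 bases and the semaphorin gene Sema6a at 103851 bases, followed by 1700012B07Rik at 104940 bases and Tnr at 107196 bases. Just inside it were Kcne1 at 98829 bases, Clvs1 at 97426 bases, Bmp8a at 95088 bases, Tbx15 at 93682 bases and Foxo6 at 89127 bases.

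**Figure D1:**
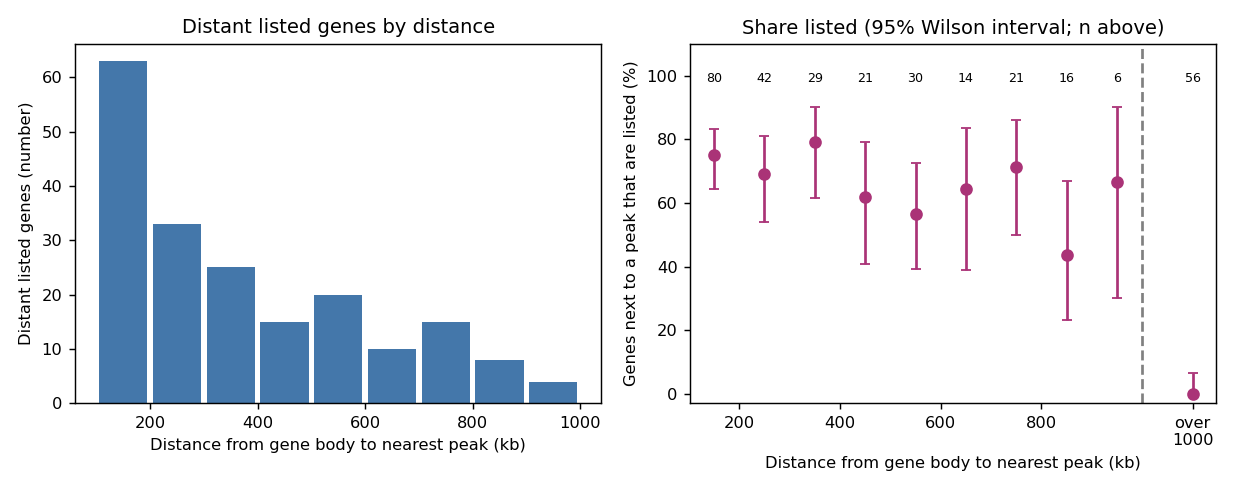
The left panel counts distant listed genes in bins of the distance from gene body to nearest peak (kb); the first bin holds 63 genes and the last 4. The right panel gives the percentage of protein-coding genes next to a peak that are listed, with 95% Wilson intervals and the number of genes above each point; it is 75% in the first bin and 0% beyond 1000 kb.

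No listed gene lay beyond 1000000 bases. Protein-coding genes that were the nearest to a peak on either side, and whose own nearest peak lay 100000 to 1000000 bases away, numbered 259. Of these 177 were listed (68.3%, 95% Wilson interval 62.4 to 73.7), a count that includes those left aside. By bins of distance the share ran from 7 of 16 (43.8%, interval 23.1 to 66.8) between 800000 and 900000 bases to 23 of 29 (79.3%, interval 61.6 to 90.2) between 300000 and 400000 bases. In the first bin, from 100000 to 200000 bases, 60 of 80 were listed (75%), from 500000 to 600000 bases 17 of 30 (56.7%), and in the last, from 900000 to 1000000 bases, 4 of 6 (66.7%). The intervals of these bins overlapped. Beyond 1000000 bases 0 of 56 were listed, which allows a share of up to 5.36% by a floor of 3 counts, with a Wilson upper limit of 6.42%.

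The unlisted neighbours were 82 genes in the same position as the distant listed ones. They included the guidance receptor genes Robo1 at 691759 bases and Unc5d at 518624 bases, the synaptic adhesion gene Nlgn1 at 861119 bases and the transcription factor gene Tcf4 at 801789 bases. Sgcd, the delta-sarcoglycan gene of the dystrophin complex of muscle, lay 710173 bases from a peak and was not listed. These 5 were picked after their values were seen, from the neighbours on the gene lists used below. Predicted-gene symbols were carried by 10 of the 82 unlisted and 11 of the 177 listed neighbours.

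The 10 genes farthest from a peak had diverse roles. Klhl1, which encodes a neuronal actin-binding kelch protein, was the farthest at 968952 bases. Speer2, of a testis-expressed family, lay at 958337 bases and Amy2a5, a pancreatic amylase gene, at 934284 bases. Ccdc90b, which encodes a mitochondrial coiled-coil protein, lay at 911000 bases from a peak inside Dlg2. Mcph1, the gene of the chromosome condensation regulator microcephalin, lay at 898153 bases, and the RING finger gene Rfpl4b at 891205 bases. Nr2f2, the gene of the orphan nuclear receptor COUP-TFII, lay at 878845 bases (gene at chr7:70351946-70366746, peak at chr7:69472753-69473101). Ndn, the imprinted gene of the growth suppressor necdin, lay at 863692 bases, the ileal bile acid transporter gene Slc10a2 at 861913 bases and the doublecortin-domain gene Dcdc2c at 842540 bases. Amy2a5 had a protein-coding gene, its paralogue Amy2b, between it and the peak, and part of Dlg2 lay between Ccdc90b and its peak. The other 8 had no protein-coding gene in between or around the peak.

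Most distant listed genes had no protein-coding gene between them and their peak. With a gene that spans the peak counted as in between, this held for 137 of 193 (71.0%, interval 64.2 to 76.9). With spanning genes left out of the count it held for 178 (92.2%, interval 87.6 to 95.2), 1 gene lay in between for 13, and more for 2. When lncRNA genes, pseudogenes and other types were counted, again without those spanning the peak, 11.4% had no gene in between. Genes that only reach into the stretch were counted, including any around the distant gene itself. By the count without genes spanning the peak, Gm13090 had 8, of which Camta1 also surrounds Gm13090. Another of the 8 was Errfi1, the gene of an inhibitor of EGF receptor signalling, which was itself a distant listed gene at 113939 bases. The lncRNA gene 5730480H06Rik had 2, Pacrgl and Kcnip4, with the peak inside Slit2. Among the 13 with 1 gene in between, the 8 farthest from a peak were taken, and the gene was Amy2b for Amy2a5, Gm46911 for Cpeb2, Gm46696 for Tsga8, Iftap for Rag2, Ccdc59 for Mettl25, Gm1322 for Scn7a, Gm46238 for Uhrf1bp1l and Gm46240 for Btg1.

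A pair of arrangements accounted for the genes. The nearest peak lay between protein-coding genes for 146 of them (75.6%, interval 69.1 to 81.2) and inside another protein-coding gene for the remaining 47. In the second arrangement the gene around the peak was itself listed in 43 of 47 cases. The distant gene lay beyond it with no further protein-coding gene in between in 35 of the 47. A further gene reached into the stretch for 6, such as Runx1, and 7 lay inside the spanning gene itself, such as Bend5 in Agbl4, with Tsga8 in Dmd in both counts. Examples with no further gene in between are Capza2, the actin-capping protein gene at 144098 bases from a peak inside the receptor kinase gene Met, Il5ra at 120248 bases from a peak inside Cntn4, and Klf5 at 674946 bases from a peak inside its relative Klf12. The gene around the peak was not listed for Rasgrf2 (Msh3), Galnt7 (Galntl6), Rpap3 (Pced1b) and Tsga8 (Dmd). The median distance was 234514 bases in this arrangement and 355172 bases where the peak lay between genes, with 95% order-statistic intervals of 183176 to 283554 and 285122 to 407247 bases. That difference was not tested.

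The distant genes belonged to 152 of the 256 peaks. For 111 peaks there was 1 such gene and for 41 there were 2. In 40 of those 41 the genes lay on opposite sides of the peak, and the other was the peak of Errfi1 and Gm13090. The genes are thus not independent of each other. Of the 146 genes whose peak lay between genes, 118 (80.8%, interval 73.7 to 86.4) had another listed gene across the peak within 1000000 bases. Over both arrangements 163 of 193 (84.5%) had a listed gene across the peak or around it, which left 30 with none, among them Tlr4, Tenm2, Epha7 and Ndn.

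Peaks with a distant listed gene as the nearest listed gene on each side numbered 43. The gap between the 2 genes ran from 348408 to 1681615 bases, and 1 gap held 2 of the peaks. Of the 42 gaps, 36 held no protein-coding gene, and the median gap was 824229.5 bases. The widest gap held a peak of 179 bases at chr10:37929157-37929336. Marcks, the gene of an actin-binding substrate of protein kinase C, lay 790231 bases to one side and Rfpl4b 891205 bases to the other. The next, of 1602708 bases, held a peak of 348 bases between the arrestin-domain gene Arrdc4 (723515 bases) and Nr2f2. In the third, of 1498176 bases, a peak of 276 bases at chr13:26030350-26030626 lay between the neuronal membrane gene Nrsn1 (760354 bases) and Hdgfl1 (737546 bases). Both genes were therefore at nearly the same distance from it.

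Next in the order of width was a gap on chromosome 5. A peak at chr5:10446980-10447302 lay between Grm3, a metabotropic glutamate receptor gene, at 721628 bases and Gm5861 at 735713 bases. The peak of Klhl1 lay 298556 bases from Dach1, the gene of a transcriptional cofactor of the retinal determination network. A single gap, between the immune checkpoint gene Pdcd1 and Fam174a, held 2 peaks, of 316 and 391 bases. The remaining gaps among those of the 10 top peaks were those of Btbd3 (795099 bases) with the serine palmitoyltransferase gene Sptlc3 (411135 bases), of the sperm-head gene Cylc2 (609596 bases) with the condensin gene Smc2 (578849 bases), and of the HMG-box gene Tox (749077 bases) with Car8 (400253 bases).

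**Figure D2:**
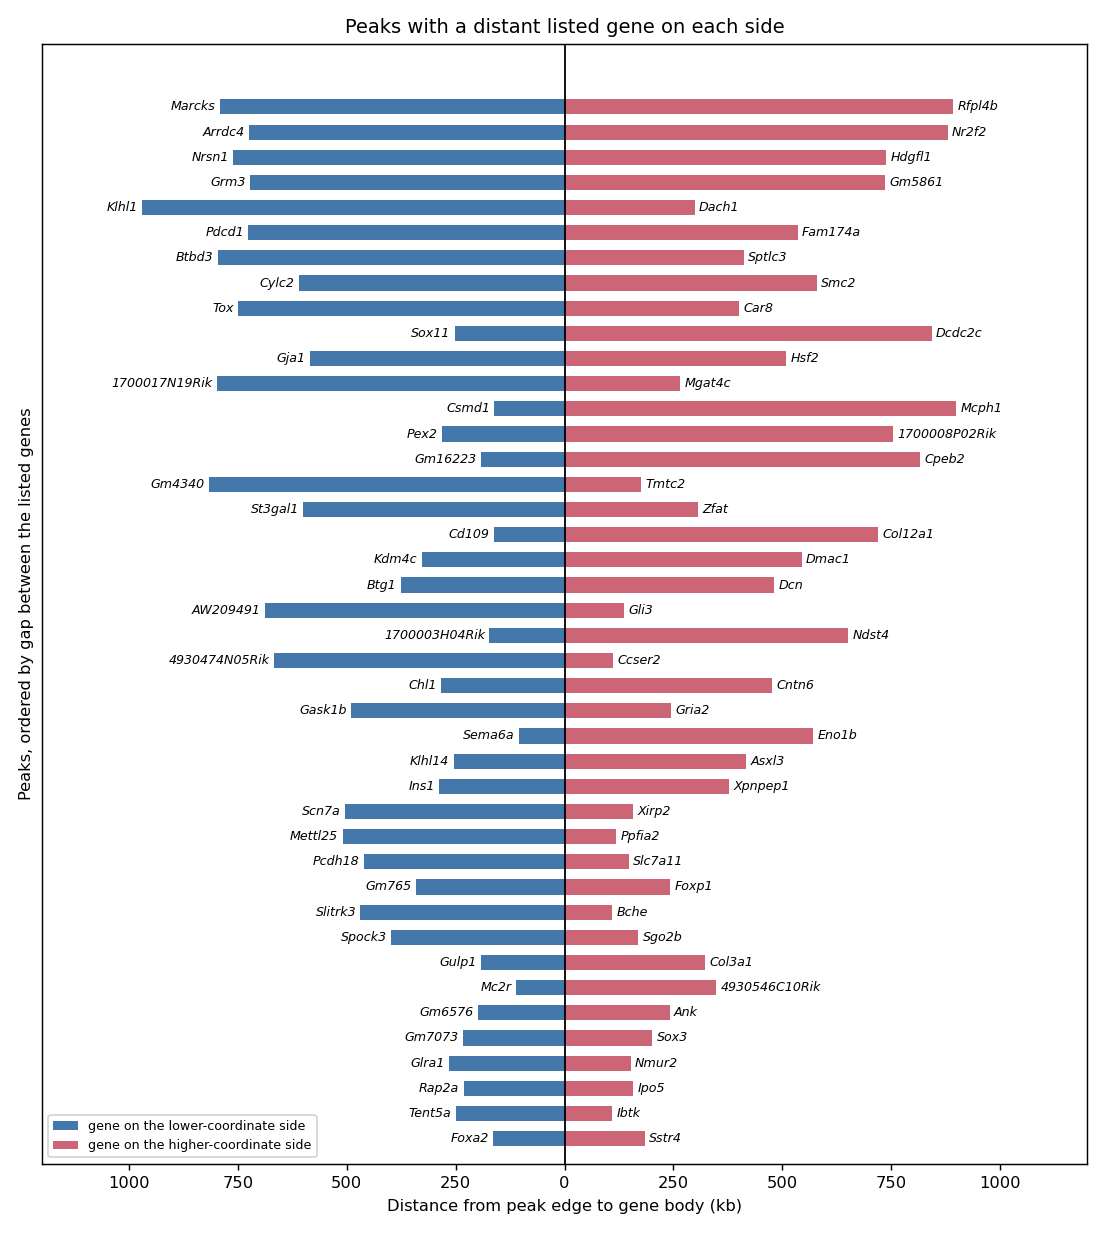
Each bar pair is a peak, set at 0, with the distances (kb) from its edges to the nearest listed gene on the lower-coordinate (left) and higher-coordinate (right) side; all genes drawn are distant listed genes, and the gap of Pdcd1 and Fam174a, which holds 2 peaks, is drawn once. Gaps shrink from 1681615 bases (Marcks and Rfpl4b) at the top to 348408 bases (Foxa2 and Sstr4) at the bottom.

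Gene lists by symbol were then set against the 186 protein-coding distant genes, and 50 of these were on at least 1 list. No list was tested for enrichment, because genes next to wide gaps were selected by position. Transcription factors gave 13 of 186 (6.99%, interval 4.13 to 11.6), beside 5.21% of all 21523 protein-coding genes and 6.31% of the 206 other listed ones. Both of these shares lay inside the interval. The symbol patterns are not complete and miss regulators such as Hsf2, Zfat and Dach1 among the distant genes. The nearest to a peak was Gli3, the hedgehog pathway effector, at 137443 bases, followed by Runx1, a regulator of blood development, at 142661 bases. The endoderm factor gene Foxa2 lay at 164225 bases, the ETS factor gene Etv1 at 183176 bases, Sox3 at 201093 bases and the cortical T-box gene Tbr1 at 219019 bases.

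At the far end of the same list stood Nr2f2 and Tox. Klf5, a Krüppel-like factor gene, lay at 674946 bases and the retinoid-related orphan receptor gene Rora at 642061 bases. The atypical cell cycle repressor gene E2f7 lay at 541191 bases from a peak inside Nav3. Sox11, a factor of neuronal development, lay at 252389 bases, with Dcdc2c across its peak of 148 bases. Foxp1, singled out after its value was seen, lay at 241633 bases from a peak of 537 bases.

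Axon guidance and synaptic adhesion genes gave 10 of 186 (5.38%, interval 2.95 to 9.61), beside 0.711% of all protein-coding genes and 3.88% of the other listed genes. The last of these shares lay inside the interval. Guidance receptors and ligands were the neuropilin gene Nrp2 at 793903 bases, the ephrin receptor gene Epha7 at 402267 bases and Sema6a. Cell adhesion proteins of the immunoglobulin superfamily were encoded by Negr1 (127150 bases), Chl1 (282687 bases) and Cntn6 (476789 bases). Chl1 and Cntn6 flanked the same peak, of 148 bases at chr6:104015725-104015873, and the next listed gene along the chromosome, Cntn4, held a further peak. Synaptic organisers were the teneurin gene Tenm2 (717575 bases) and Slitrk3 (468519 bases). The leucine-rich repeat gene Lrrn3 (159169 bases) was on the list by its symbol. Adgrl4, matched by its symbol, encodes an endothelial adhesion receptor and lay at 319089 bases. Cadherins and protocadherins gave 2 of 186 (1.08%, beside 0.525% of all and 0.485% of the other listed genes), Pcdh17 at 248158 bases and Pcdh18 at 460367 bases.

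**Figure D3:**
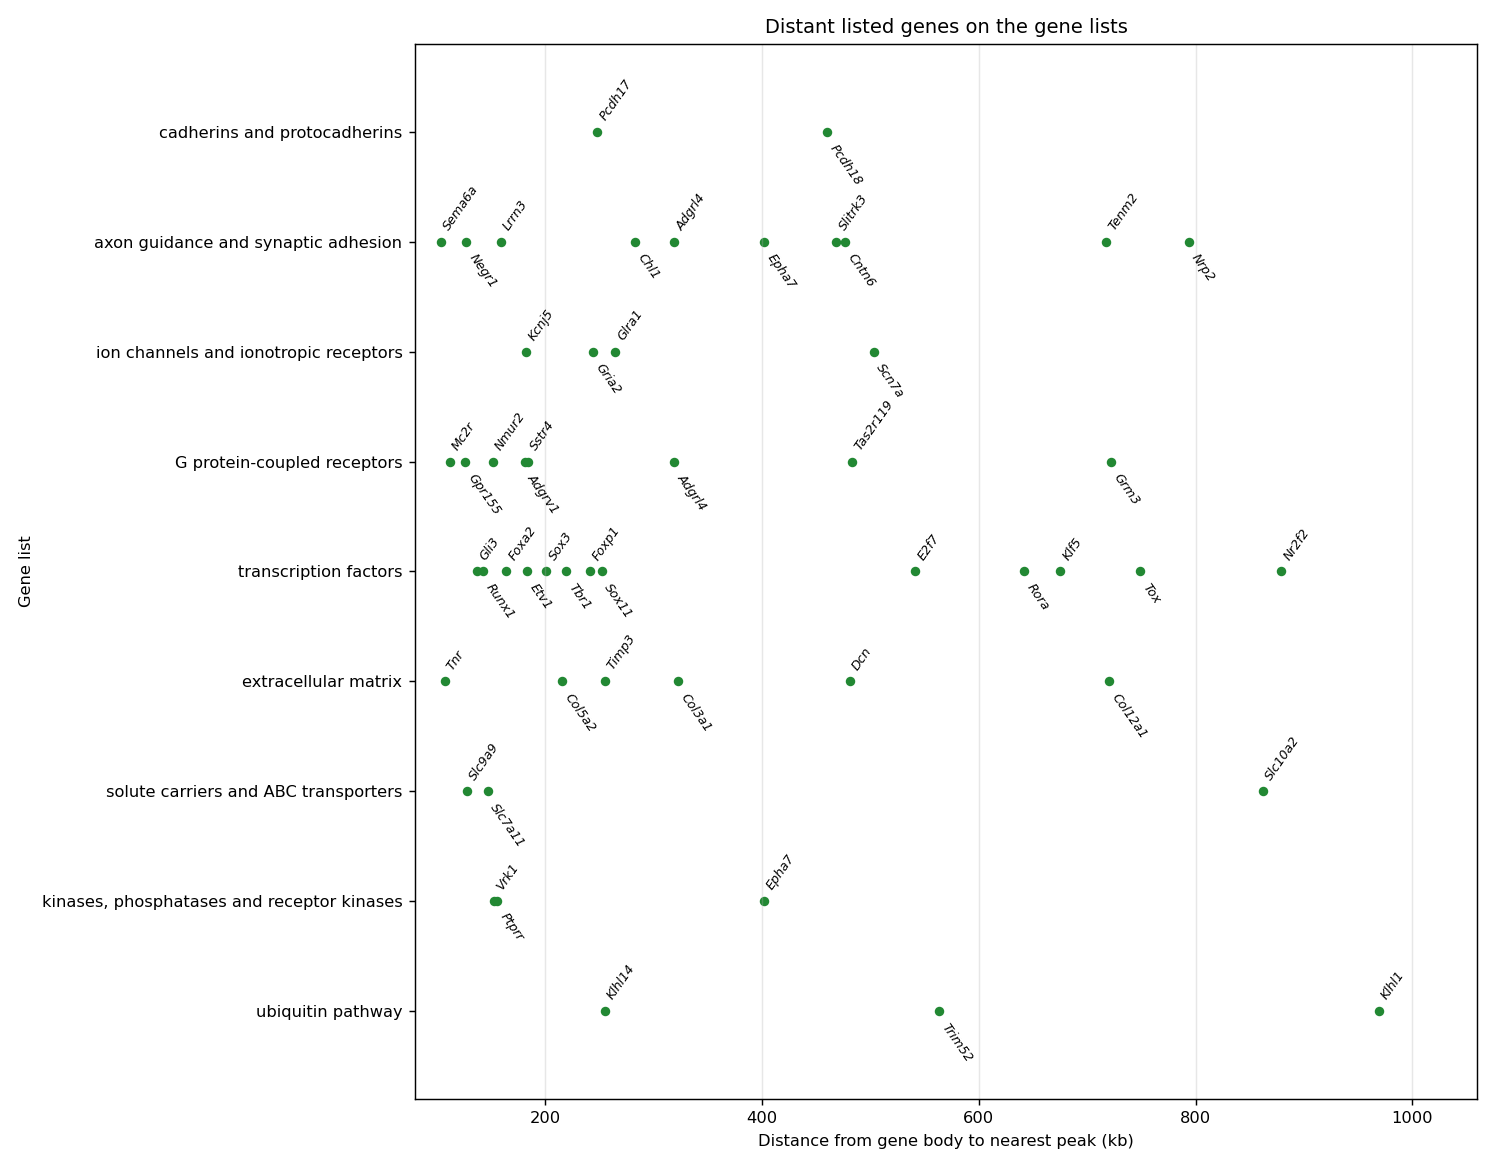
Each point is a distant listed gene, placed by the distance from its body to the nearest peak (kb) on the row of each gene list it belongs to. Transcription factors run from Gli3 at 137443 bases to Nr2f2 at 878845 bases, and the farthest point is Klhl1.

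Extracellular matrix genes gave 6 of 186 (3.23%, interval 1.49 to 6.86), beside 1.16% of all protein-coding genes and 1.46% of the other listed genes. Fibrillar and fibril-associated collagens were encoded by Col5a2 (215601 bases), Col3a1 (322322 bases) and Col12a1 (720205 bases). The neighbours Col3a1 and Col5a2 had different nearest peaks, one on each side of the collagen pair. The small proteoglycan gene Dcn lay at 480855 bases, across its peak from the antiproliferative gene Btg1 at 375598 bases. The metalloproteinase inhibitor gene Timp3 lay at 255057 bases and the tenascin gene Tnr at 107196 bases.

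G protein-coupled receptors gave 8 of 186 (4.30%), beside 2.91% of the other listed genes and 8.51% of all protein-coding genes, a list that includes the large olfactory and vomeronasal families, neither of which had a distant listed gene. The receptors were Mc2r for ACTH (112028 bases), Nmur2 for neuromedin U (151790 bases), Sstr4 for somatostatin (183991 bases), the bitter taste receptor gene Tas2r119 (483463 bases), Grm3, Adgrl4, the large sensory adhesion receptor gene Adgrv1 (181103 bases) and Gpr155 (126171 bases). Ion channels and ionotropic receptors gave 4 of 186 (2.15%), beside 1.31% of all and 3.40% of the other listed genes. These were the inward rectifier gene Kcnj5 (182725 bases), the AMPA receptor gene Gria2 (244054 bases), the glycine receptor gene Glra1 (264643 bases) and the atypical sodium channel gene Scn7a (502945 bases). Glra1 and Nmur2 lay on opposite sides of 1 peak.

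Solute carriers and ABC transporters gave 3 of 186 (1.61%, beside 2.04% of all and 4.85% of the other listed genes), which were the solute carrier genes Slc10a2, the cystine transporter gene Slc7a11 (147030 bases) and the endosomal sodium-proton exchanger gene Slc9a9 (127626 bases). Kinases and phosphatases also gave 3 (1.61%, beside 2.2% of all and 3.40% of the other listed genes), which were the chromatin kinase gene Vrk1 (152938 bases), the receptor phosphatase gene Ptprr (156022 bases) and Epha7. The ubiquitin pathway list gave 3 (1.61%, beside 2.73% of all and 1.94% of the other listed genes), which were Klhl14 (254824 bases), Trim52 (563692 bases) and Klhl1. On 2 lists no distant gene was matched. Secreted ligands and their antagonists, as matched by symbol, gave 0 of 186. That allows a share of up to 1.61% by the floor of 3 counts (Wilson upper limit 2.02%). All protein-coding genes gave 1.38%, below both limits, so no lack against them is read from this 0. The 206 other listed genes gave 7 (3.40%), for example Fgf10 at 8690 bases from a peak, and that difference was not tested. The symbol patterns miss some ligands, such as the insulin gene Ins1, which was a distant listed gene at 288191 bases. Myogenic genes gave 0 of 186 with the same limits, which lie above the 0.316% of all protein-coding genes, so nothing is read from this 0. The other listed genes held 1, Eya4, at 72962 bases, apart from Myod1, which was left aside.

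**Figure D4:**
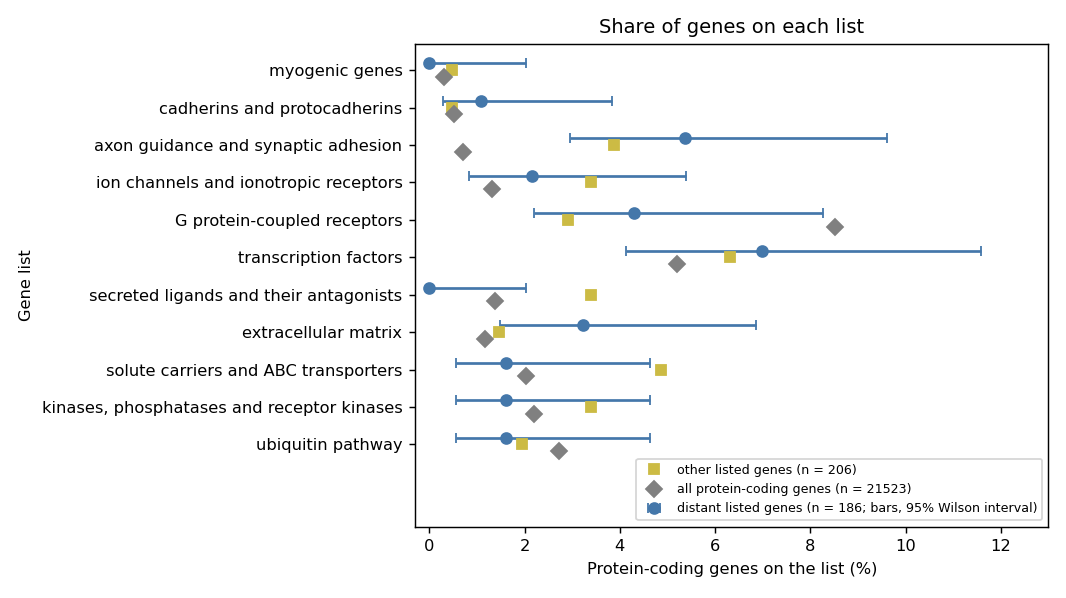
For each gene list the circle is the percentage of protein-coding distant listed genes on it, with a 95% Wilson interval, the square that of the other listed genes and the diamond that of all protein-coding genes. For axon guidance and synaptic adhesion the circle lies at 5.38%, the square at 3.88% and the diamond at 0.711%. For G protein-coupled receptors they lie at 4.30%, 2.91% and 8.51%.

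Gene length was not tested between the listed groups. The distant genes had a median length of 44864 bases (95% order-statistic interval 30841 to 71177). Listed genes within 100000 bases of a peak had one of 30608 bases (21335 to 43150), genes with a peak inside one of 174911 bases (105950 to 338170), and all protein-coding genes one of 17374 bases. Length and the chance of holding a peak are tied by construction, and the intervals of the distant genes and of those within 100000 bases overlapped. The part of length in the list shares was not tested.

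**Figure D5:**
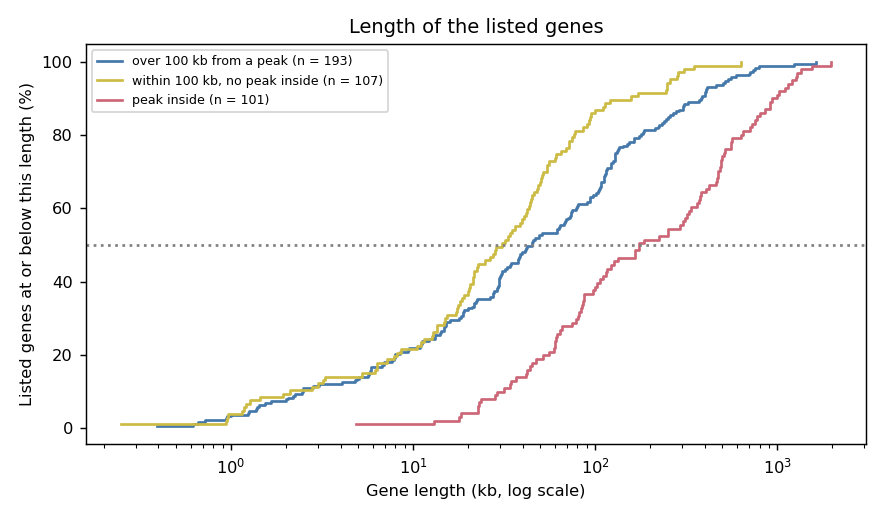
Cumulative percentage of listed genes by gene length (kb, log scale) for the 193 distant genes, the 107 within 100000 bases and the 101 with a peak inside; the dotted line marks the medians, 44864, 30608 and 174911 bases. The curve of genes with a peak inside lies to the right of the others.

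A strand was given for 137 of the distant genes, and for none of the 12 on chromosome 18. The transcription start was the end nearer to the peak in 71 of them (51.8%, interval 43.5 to 60.0), and in 44 of 82 other listed genes without a peak inside (53.7%). Starts therefore faced the peak about as often as they faced away. From the peak midpoint to the nearest start the median was 373269 bases, and 1 gene had its start beyond 1000000 bases.

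The labels do not give the rule that joined genes to peaks, so 3 rules were compared with the list. Taking the gene around a peak, or else the single nearest protein-coding gene, returned 61 of the 193 distant genes (31.6%) and, over all matched listed genes, 217 of 408 (53.2%). The distant genes were chosen for lying far from a peak, which works against this rule. Taking the nearest protein-coding gene on each side within 1000000 bases, with those around a peak, returned 173 (89.6%). Over all matched listed genes it returned 380 of 408 (93.1%). All 3 rules used protein-coding genes only. They could therefore not return the 3 lncRNA genes and 4 pseudogenes among the 193, which left 186 that could be returned. The nearest transcription start on each side within 1000000 bases, without genes around a peak, returned 118 of the 137 distant genes with a start (86.1%). Over all matched listed genes with a start it returned 276 of 301 (91.7%). In all, the single-nearest rule returned 245 genes, of which 217 were listed, the 2-sided rule by gene body 515, of which 380 were listed, and the rule by starts 352, of which 276 were listed. The rules were not tested against each other.

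Promoters of the distant genes were searched for the E-box, the motif bound by MYOD1 and other basic helix-loop-helix factors. The window was the 250 bases before a transcription start, in 172 windows of the 137 genes. CAGCTG, which reads the same on both strands, occurred in 20 windows (11.6%, interval 7.65 to 17.3), beside 13.1% of all 32619 windows and 13.6% of those of the other listed genes. CAGGTG or its reverse complement CACCTG occurred in 22 (12.8%, interval 8.60 to 18.6), beside 17.3% of all and 19.1% of those of the other listed genes. The last of these shares lay outside the interval of the distant genes. Its own interval, 14.4 to 24.8, overlapped that one, and the difference was not tested. Any CANNTG, which includes both, occurred in 102 (59.3%), beside 66.2% of all and 63.2% of those of the other listed genes. No share was above that of all promoters, and these windows lay far from any peak by the way the genes were chosen.

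The distant genes on a gene list whose window held CAGCTG were Cntn6, Scn7a and Sox11. Their windows are shown because they are the promoters of this set that carry the motif, which is in capitals (RefSeq, GRCm38.p6, printed in the direction of transcription and ending at the base before the start). Cntn6 is at chr6:104492794-104493043 on the + strand, Scn7a at chr2:66784911-66785160 on the - strand and Sox11 at chr12:27342719-27342968 on the - strand.
Cntn6: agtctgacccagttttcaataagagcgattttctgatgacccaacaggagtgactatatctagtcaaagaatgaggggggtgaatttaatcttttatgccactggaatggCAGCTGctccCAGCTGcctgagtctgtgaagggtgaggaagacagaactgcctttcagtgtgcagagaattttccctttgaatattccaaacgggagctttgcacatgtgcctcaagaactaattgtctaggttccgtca
Scn7a: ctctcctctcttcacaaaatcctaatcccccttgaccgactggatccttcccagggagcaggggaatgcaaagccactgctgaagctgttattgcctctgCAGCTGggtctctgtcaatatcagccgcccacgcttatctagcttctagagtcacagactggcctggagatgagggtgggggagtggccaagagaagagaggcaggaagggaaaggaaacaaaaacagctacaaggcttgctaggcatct
Sox11: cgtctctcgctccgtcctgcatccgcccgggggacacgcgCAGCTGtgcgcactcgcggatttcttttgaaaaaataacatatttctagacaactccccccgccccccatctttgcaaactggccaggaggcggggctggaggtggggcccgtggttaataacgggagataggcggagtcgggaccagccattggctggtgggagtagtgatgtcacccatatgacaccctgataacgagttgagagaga
Cntn6 had the motif 2 times, at -140 and -130 counted from the start to its first base. Scn7a had it at -150 and Sox11 at -210. A match describes these letters and is not evidence of binding.

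Distant genes occurred on all 20 chromosomes examined. Their number ran from 3 on chromosomes 16 and 17 to 23 on chromosome 10, which carried 22 peaks. As a share of the listed genes of a chromosome they made up 20% on chromosome 17 and 63.9% on chromosome 10. The peaks nearest to distant genes had a median width of 237 bases (148 to 1469), beside 233.5 bases (148 to 1200) for the other 104 peaks.

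A small number of distant genes were not protein-coding or carried an older name. The lncRNA genes were Gm16223 (192732 bases), 5730480H06Rik (283554 bases) and 4930546C10Rik (347847 bases). The pseudogenes were Gm6576 (198703 bases), Gm17087 (226799 bases), Gm10076 (371015 bases) and Rpl13a-ps1 (437192 bases). Older symbols were used for Tent5a (listed as Fam46a), Castor2 (Gatsl2), Gask1b (Fam198b), Dmac1 (Tmem261) and Cibar1 (Fam92a). Predicted-gene symbols were carried by 18 of the 193.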

How the data were processed

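ChIRP-seq of C2C12 cells was made with MUNC probes (2 libraries) and lacZ probes (2 libraries), grouped by sample title. The authors deposited a peak list (chromosome, start, end) and a list of adjoining gene symbols, with no other value, per the file headers. Bowtie2 2.3.4.1, MACS2 2.1.1.20160309 and mm10 are named in the submitters' processing notes. The peak threshold, the use of the lacZ libraries, the combining of replicates, the origin of peak starts (0 or 1), the rule joining genes and the sequencing depth are not given in the sources used here. Positions are printed as deposited.

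Genes came from RefSeq GRCm38.p6, the assembly that mm10 names: 49214 genes starting at or beyond base 3000000 on the autosomes and X, matched by current symbol, else an older symbol of 1 gene only. Of 410 symbols 2 were not matched. Distance is the number of bases between gene body and peak edge. Starts came from promoter windows, present for 17274 of 21523 protein-coding genes. The gene set, gene lists and named genes (extremes of distance, gap and genes in between, and members of the lists) were chosen with earlier results of these data known. No test was made, since no value belongs to a single library. Intervals are 95% Wilson or, for medians, order-statistic intervals. Python 3.11.15, pandas 2.3.3 and scipy 1.17.1 were used, and distances and genes in between were checked on simulated positions. The alternatives tried were other distance limits, peak sets, gene types, symbol matches and neighbour rules. The planned search of peak sequences was not run, since no genome sequence was used here.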

Additional observations from a re-analysis of the deposited data

How the results depend on the processing

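Of 57 alternatives over 8 results, 48 stayed within the range set for the result (1.5 times for counts, the 95% interval for shares and medians). The median distance followed the limit, at 255057 bases with a limit of 50000 and 439854.5 bases with a limit of 200000, by construction, and was 373269 bases from transcription start to peak midpoint over the 137 genes with a start, whose median from the gene body was 297157 bases. Keeping only the 126 peaks wider than the median removes the peak next to many listed genes by construction: 300 genes were then distant, the median distance was 2899920 bases, 32% had no protein-coding gene in between and 72.3% had another listed gene across the peak, against 64.2% of the 193. With genes of every type counted in between, 11.4% had none, against 92.2% for protein-coding genes. With the gene around the peak counted in between, an alternative chosen after the data were seen, the share was 71.0%. Merging close peaks, protein-coding genes only, current symbols only and keeping the 7 genes moved no result outside its range. No paired analysis was possible because neither deposited list is split by library, so leaving out a replicate was not possible either. The peak list carries no score, so a stricter threshold was not tried, and depth limits on weaker sites were not estimated.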

Other observations

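Distant listed genes outside the symbol lists were sorted by known role after they had been seen, so the groups below are examples. They were not defined over other genes, so no share is given. Chromatin and chromosome proteins included the remodeller gene Chd7 at 178577 bases, the histone demethylase gene Kdm4c at 327219 bases, the arginine methyltransferase gene Prmt6 at 333841 bases and the spindle checkpoint gene Mad2l1 at 547010 bases. Immune receptors and regulators included the endotoxin receptor gene Tlr4 at 653168 bases and Tnfrsf11a, the RANK receptor gene, at 128812 bases. Metabolic enzymes and carriers included the serine palmitoyltransferase genes Sptlc3 and Sptssa (420962 bases), which lie on different chromosomes, and Nnt, the mitochondrial transhydrogenase gene, at 534116 bases.

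Xirp2, Gja1, Ndn and Capza2 were picked after the data were seen, for roles described in muscle or myoblasts, and are not a complete set. Xirp2, the gene of an actin-binding protein of striated muscle, lay 157907 bases from a peak of 238 bases at chr2:67287855-67288093, with Scn7a across it at 502945 bases. Gja1, the connexin 43 gene, lay 584187 bases from a peak of 183 bases, with the heat shock factor gene Hsf2 across it at 508977 bases. Ndn lay 863692 bases from a peak of 148 bases with no listed gene across it, and Capza2 lay next to Met. No expression value was in the lists, so whether any of these genes responds to MUNC was not tested.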
